A study of Arabidopsis thaliana with 12 samples.

Results

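The comparison set 2 Arabidopsis lines against each other directly: root ground tissue in which the transcription factor JKD was driven, and the same tissue in which SCR was driven. Its members were chosen from the array titles, and they are 6 of the series' 12 arrays, 3 from the JKD line and 3 from the SCR line. The JKD line is J0571 with a UAS copy of JKD, the SCR line is J0571 with a UAS copy of SCR, and the control line is J0571 alone, also with 3 arrays. The remaining 3 arrays, of J0571 with a UAS copy of BLJ, enter only the shared processing and the shared fit. All are of ecotype C24, and the titles of all give a wild-type (WT) genetic background. All carry J0571, an enhancer trap in which GAL4 activates UAS copies and GFP marks the cells. Seedlings grew for 5 days and fluorescent root tip cells were sorted. Whether each UAS line descends from 1 transformant is not given in the sources used here, and J0571 limits the driven expression to the cells in which the trap is active. The control arrays show which of the lines stands away from the undriven state, and they also enter the shared processing and fit.

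JACKDAW (JKD) is a zinc finger protein of the BIRD family, and SCARECROW (SCR) is a GRAS family protein. Both act with SHORT-ROOT, a GRAS protein that moves from the stele into the neighbouring cell layer, where SCR and JKD hold it in the nucleus. Together they control the divisions that separate cortex from endodermis and the identity of these layers. GRAS proteins are thought to reach DNA largely through partners such as the BIRD proteins.

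Each array gave 1 intensity for each of 22746 plant probe sets, and 15922 were tested after the dimmest 30% were left out. Values below are quantile-normalized intensities on a linear scale, in which the median tested probe set averaged 0.988 over the 6 arrays. Log2 differences are JKD minus SCR on the log2(value + 0.7025) scale, which understates the change of dim genes. A probe set was called at an adjusted p under 0.05 in limma's test. The arrays correlated across probe sets at Pearson's r of 0.983 to 0.993 within the JKD line, 0.982 to 0.985 within the SCR line and 0.969 to 0.986 between the lines. The log2 deposited values had an SD of 1, 0.811 and 0.934 on JKD 1 to 3 and of 0.901, 0.668 and 0.904 on SCR 1 to 3, so that the second array of each line had the narrower spread. Of 9 probe sets for the added hybridization RNAs, 0 were called between the lines, the smallest adjusted p being 0.583, or 0.423 on the deposited values. After quantile normalization those for cre had the same mean in both lines (56 and 46.4), so on that scale they show nothing.

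The driven genes did not check the labels. The JKD probe set was dim, with 0.845, 0.839 and 0.831 on the JKD arrays, 0.901, 0.973 and 0.924 on the SCR arrays and 0.841, 0.90 and 0.837 on the control arrays. It was not higher in the line labelled for it: the JKD arrays lay below all SCR arrays (−0.09 ± 0.02, adjusted p = 0.20) and overlapped the control arrays (−0.02, adjusted p = 0.701). Which stretch of the transcript it reads, and whether the UAS copy carries that stretch, is not known here, and no probe set is annotated to SCR in the table used here. Line names below are those of the labels, and every direction rests on them.

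The lines differed at 78 probe sets, 0.49% of those tested, of which 49 (0.308%) were higher and 29 (0.182%) lower in the JKD line. The largest called increase was that of AT2G23910, at 3.04 times its SCR line level, and AT3G15450, EXO and AT1G25230 had the largest called decreases among genes with a name. Without adjustment, 1666 had a p under 0.05. The median size of a called difference was 0.33 among the higher and 0.34 among the lower probe sets, against 0.03 over all tested. The 6 arrays did not overlap between the lines for any called probe set, which was true of 20.4% of all tested (10.6% with the JKD arrays above and 9.78% with them below). Of the called probe sets, 39 map to 1 gene, 21 higher and 18 lower. The 39 without a single gene name here, 28 higher and 11 lower, had log2 differences of 0.15 to 1.01 and of −0.18 to −0.91.

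**Figure D1:**
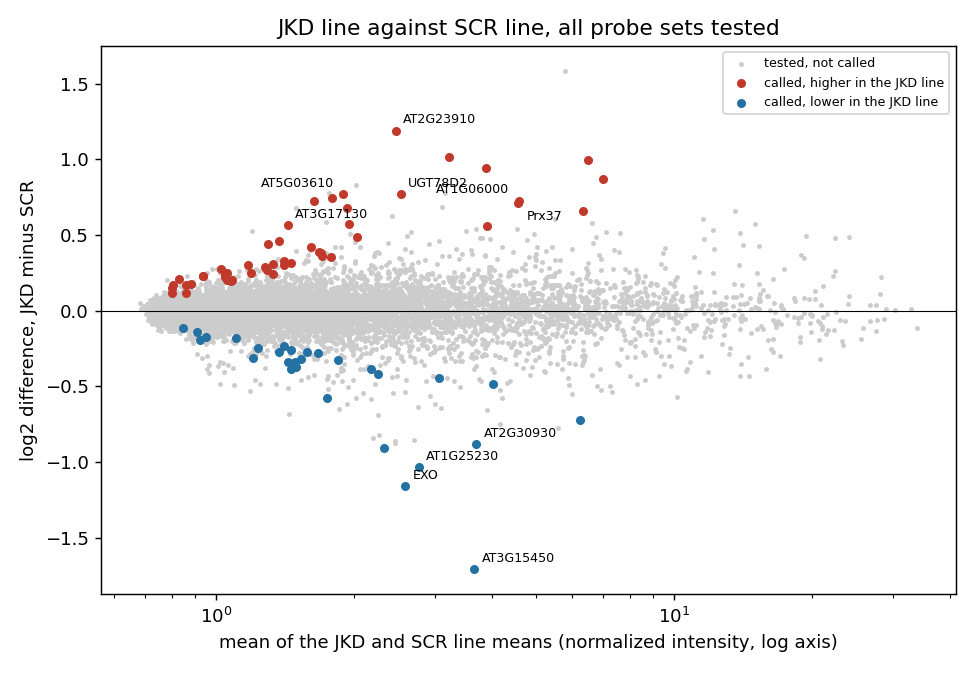
Log2 difference of JKD minus SCR (y axis) against the mean of the JKD and SCR line means (normalized intensity, log axis), 1 point per probe set tested. The 49 probe sets called higher in the JKD line are red and the 29 called lower are blue, and called differences are as small as 0.11 among dim probe sets.

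Among the genes higher in the JKD line were 2 glycosyltransferases of flavonol metabolism. UGT78D2, which attaches glucose to flavonols and anthocyanins, had 3.46, 3.07 and 3.58 on the JKD arrays, 1.79, 1.85 and 1.42 on the SCR arrays and 3.14, 2.64 and 2.15 on the control arrays. Its lowest JKD array lay above its highest SCR array. The control mean of 2.65 lay nearer the JKD mean of 3.37 than the SCR mean of 1.69, although control 3 was nearer the SCR arrays. The log2 difference was 0.77 ± 0.11 (SE, adjusted p = 0.00632), a ratio of 2.0 on the linear scale. AT1G06000, a flavonol rhamnosyltransferase, had 6.18, 5.28 and 6.18 on the JKD arrays, 3.15, 3.29 and 3.37 on the SCR arrays and 2.78, 4.20 and 4.48 on the control arrays. Its SCR arrays lay within the control range and its JKD arrays above it. The difference was 0.73 ± 0.14 (adjusted p = 0.0445), but the call was lost without any 1 of the 6 JKD and SCR arrays, control 2 or BLJ 3, with values under 1 set to 1 and without the trend and robust options. UGT78D2 kept its call without each of the 12 arrays, but lost it without JKD 2 and SCR 2 together. UGT78D3, a close relative of UGT78D2, averaged 0.762 ± 0.0297 in the JKD line, against 0.746 ± 0.0234 in the SCR line (SD, n = 3 each), a difference of 0.02 ± 0.02 (adjusted p = 0.839). Of 5 flavonol glycosyltransferases listed after earlier results were known, 3 were tested and 2 were called, against 0.49% of all probe sets, and of 9 flavonoid synthesis genes UGT78D2 alone was tested.

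AT2G23910 had 4.11, 3.04 and 4.01 on the JKD arrays, 1.23, 1.17 and 1.27 on the SCR arrays and 2.33, 2.04 and 1.73 on the control arrays. The lines lay on either side of the control with no overlap. The log2 difference between the lines was 1.19 ± 0.10 (adjusted p = 0.000218), and the call held without each of the 12 arrays and in every other setting tried. Against the control the JKD line differed by 0.69 (adjusted p = 0.00883) and the SCR line by −0.50 (adjusted p = 0.0515). The JKD call against the control was lost without JKD 1 or JKD 3 and in a fit of the 6 JKD and control arrays alone. All comparisons with the control share its 3 arrays and share the line arrays with the direct comparison, so they are not independent of it.

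AT3G17130 and AT5G57785 had the same order of the lines. AT3G17130 had 1.90, 1.75 and 1.91 on the JKD arrays, 1.02, 0.985 and 1.06 on the SCR arrays and 1.18, 1.24 and 1.39 on the control arrays. AT5G57785 had 1.75, 1.53 and 1.81 on the JKD arrays, 1.04, 1.02 and 1.06 on the SCR arrays and 1.12, 1.18 and 1.22 on the control arrays. In both, the SCR arrays stood just below the controls and the JKD arrays well above them. The direct differences were 0.57 ± 0.07 and 0.46 ± 0.05, with adjusted p = 0.00299 and 0.00204. The JKD line differed from the control by 0.38 and 0.35 (adjusted p = 0.0192 and 0.00883), calls that were lost without JKD 1 or JKD 3 and with the 6 JKD and control arrays alone. That of AT3G17130 was also lost without control 1 and with values under 1 set to 1. The SCR line differed from it by −0.19 and −0.11 (adjusted p = 0.20 and 0.298).

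Prx37, a class III peroxidase (secreted enzymes that act on cell wall polymers), had 5.64, 5.58 and 6.19 on the JKD arrays, 3.88, 3.16 and 2.86 on the SCR arrays and 4.29, 4.0 and 4.71 on the control arrays. Its difference was 0.71 ± 0.11 (adjusted p = 0.00824), lost without JKD 3 or SCR 2, and neither line was called against the control (0.37 and −0.34, adjusted p = 0.0746 and 0.148). It was the single called member of 37 tested class III peroxidases, or 2.70%, against 0.49% of all probe sets. The peroxidase list was added or extended after a first look at the results, so nothing is read from this share. Of the 37, 24 had a difference above 0 and 13 below, with a median of 0.04, against 8114 and 7808 of all probe sets and a median of 0.001. The members next in size were not called. AT2G37130 had a difference of −0.44 ± 0.12 (adjusted p = 0.165) and AT4G36430 of 0.42 ± 0.09 (adjusted p = 0.0725). AT5G66390 had 16.8, 16.1 and 21.2 on the JKD arrays, against 13.3, 8.33 and 14.7 on the SCR arrays, a difference of 0.57 ± 0.23 without overlap (adjusted p = 0.388). AT4G08780, the locus next to Prx37, had a difference of 0.09 (adjusted p = 0.302), and whether either probe set reads both genes was not examined.

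In RALFL32 it was the SCR line that stood away from the control, whereas in AT5G03610 and AT5G19240 the control mean lay between the lines. RALFL32, a gene for a small secreted peptide of the RALF family, had 1.93, 2.13 and 1.81 on the JKD arrays, 1.33, 1.31 and 1.19 on the SCR arrays and 1.89, 1.58 and 2.29 on the control arrays. The JKD arrays lay inside the control range and the SCR arrays below it. The difference was 0.42 ± 0.09 (adjusted p = 0.0465), a call lost without any 1 of the 6 JKD and SCR arrays, control 1 or any BLJ array, and without the trend and robust options. AT5G03610 had 3.04, 2.45 and 2.26 on the JKD arrays, 1.25, 1.17 and 1.21 on the SCR arrays and 1.57, 1.68 and 2.38 on the control arrays, with a difference of 0.77 ± 0.11 (adjusted p = 0.00679) that held without each of the 12 arrays. AT5G19240 had 2.57, 2.12 and 2.80 on the JKD arrays against 1.62, 1.48 and 1.60 on the SCR arrays (0.49 ± 0.09, adjusted p = 0.0278), lost without JKD 1, JKD 3, SCR 1, SCR 2 or SCR 3. In none of these 3 genes was either line called against the control, the smallest adjusted p being 0.066 for RALFL32 in the SCR line.

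AT2G25530 had 1.77, 1.53 and 1.64 on the JKD arrays, against 1.15, 1.18 and 1.19 on the SCR arrays, a difference of 0.32 ± 0.05 (adjusted p = 0.00754) that held without each of the 12 arrays. AT1G30700 (0.31, adjusted p = 0.0184) and AT2G47630 (0.31, adjusted p = 0.0361) completed the leading genes, and both calls depended on single arrays. AT1G30700 was lost without JKD 1, JKD 2, JKD 3, SCR 2 or SCR 3, and AT2G47630 without JKD 1, JKD 3, any SCR array, control 2 or BLJ 3 and without the trend and robust options. Against the control the JKD line differed by 0.23 in AT2G47630 (adjusted p = 0.0487), a call lost without 9 of the 12 arrays, with values under 1 set to 1, with the stricter filter, without the trend and robust options and with 6 arrays alone. CYP71B34, a dim cytochrome P450 gene, had 1.12, 1.05 and 1.03 on the JKD arrays, against 0.798, 0.77 and 0.849 on the SCR arrays (0.23 ± 0.03, adjusted p = 0.00679). Its SCR mean of 0.806 was close to the control mean of 0.819, from which the JKD line differed by 0.22 (adjusted p = 0.00883, lost without JKD 1, with values under 1 set to 1 and with 6 arrays alone), and it was the 1 member called of 10 P450 genes tested (0.49% of all probe sets were called). With values under 1 set to 1 its difference was 0.09 and the call was lost. Further called genes with smaller differences were AT3G62810 (0.30), AT2G15340 (0.30), AT2G46420 (0.22), AT4G26880 (0.21), AT1G74640 (0.20), AT3G44620 (0.12) and AT1G14345 (0.11).

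AT4G17830, of the arginine synthesis list, also was higher. It had 1.48, 1.55 and 1.49 on the JKD arrays, against 1.16, 1.15 and 1.17 on the SCR arrays, with a control mean of 1.40, so that the SCR line was the farther from the control. The difference was 0.24 ± 0.05 (adjusted p = 0.037), lost without any 1 of the 6 JKD and SCR arrays, BLJ 1 or BLJ 3 and after median centring. The list was put together after earlier results were known, and the other 4 of its 5 tested members were not called, with 0.49% called over all probe sets. OTC, the ornithine transcarbamylase gene, averaged 2.08 ± 0.138 in the JKD line, against 2.01 ± 0.134 in the SCR line, against 1.49 in the controls, a direct difference of 0.04 ± 0.07 (adjusted p = 0.915).

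**Figure D2:**
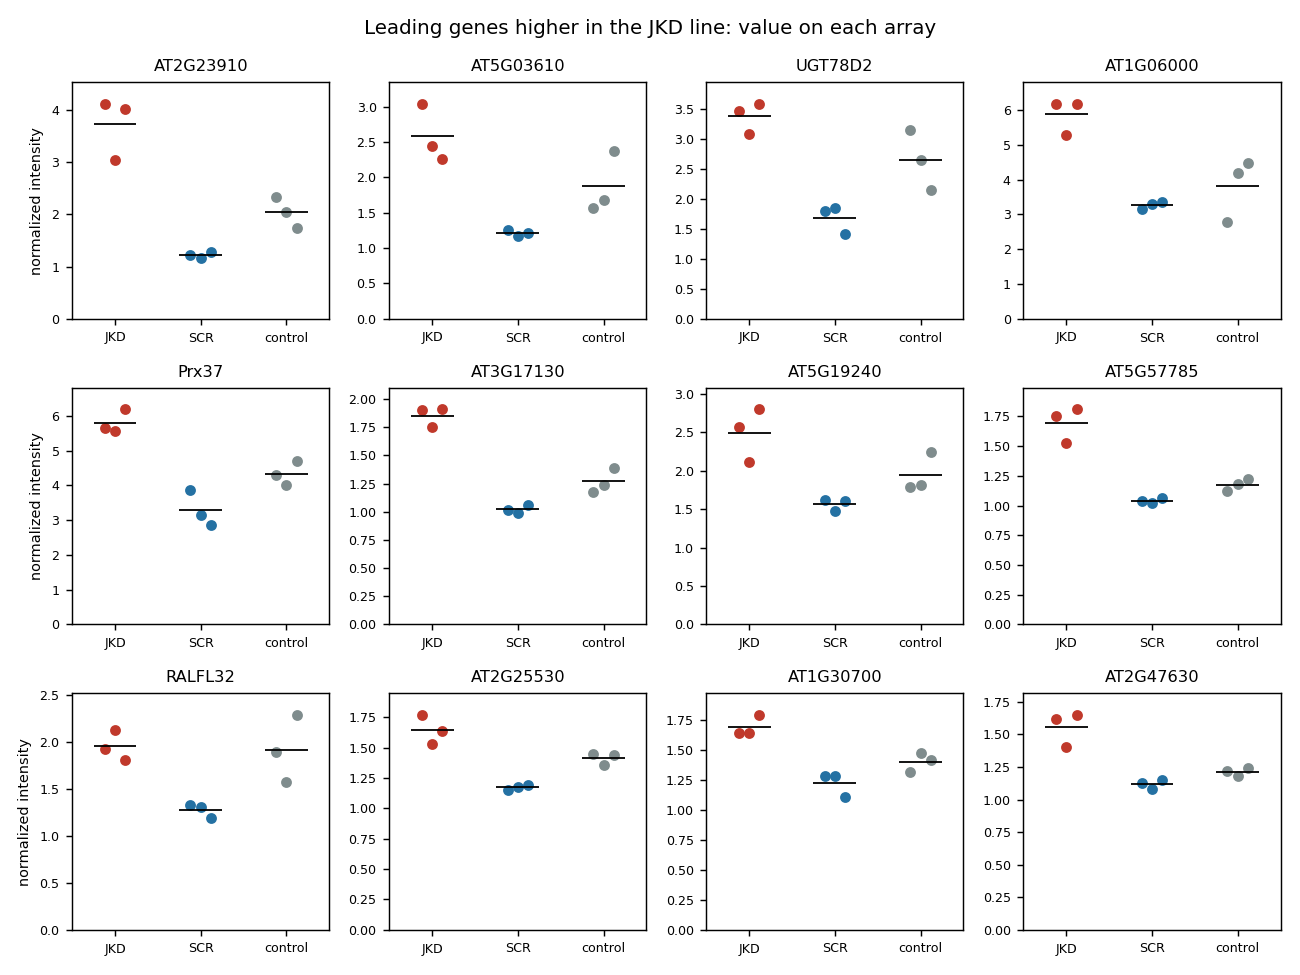
Normalized intensity (y axes from 0) of the 12 leading genes higher in the JKD line on each of the 3 JKD, 3 SCR and 3 control arrays, with points for arrays 1 to 3 from left to right and a bar at the mean. All JKD points lie above all SCR points in each panel, and RALFL32 is a gene in which the JKD and control points share a range.

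Among the genes lower in the JKD line, EXO led those with a known name. EXO, the EXORDIUM gene of brassinosteroid-promoted cell expansion, had 1.19, 1.30 and 1.38 on the JKD arrays, 4.99, 4.24 and 2.44 on the SCR arrays and 1.17, 1.44 and 1.38 on the control arrays. The JKD arrays lay within the control range, and the SCR line was higher than both with a wide spread. The difference was −1.16 ± 0.17 (adjusted p = 0.00835), with an SCR line mean 3.01 times that of the JKD line. The call was lost without JKD 1, JKD 3 or SCR 2, and in the fit of the 6 JKD and SCR arrays alone. Against the control, EXO differed by −0.03 in the JKD line (adjusted p = 0.949) and by 1.13 in the SCR line (adjusted p = 0.0318), a call lost without 6 of the 12 arrays, without the trend and robust options and with the 6 SCR and control arrays alone. It was the single measured member of both the brassinosteroid and the EXORDIUM family lists, so that neither list says more than this gene.

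AT1G25230 had 1.51, 1.56 and 1.66 on the JKD arrays, 3.79, 4.09 and 4.02 on the SCR arrays and 2.08, 1.90 and 2.13 on the control arrays. Its arrays were tight in every group, with the SCR line far above the control and the JKD line below it. The difference was −1.03 ± 0.09 (adjusted p = 0.000218), and it held without each of the 12 arrays and in every other setting. The SCR line differed from the control by 0.77 (adjusted p = 0.0113, lost without SCR 2 and with the 6 SCR and control arrays alone) and the JKD line by −0.27 (adjusted p = 0.125).

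AT3G15450 had 1.01, 1.56 and 1.08 on the JKD arrays, 9.73, 5.67 and 2.94 on the SCR arrays and 1.49, 2.56 and 2.30 on the control arrays. It showed both the largest called difference, −1.71 ± 0.30 (adjusted p = 0.0278), and a wide spread among the SCR arrays (SD 3.42). The call was lost without control 3, any BLJ array, any JKD array or SCR 2. It was also lost on the deposited values, after median centring, without a filter, without the trend and robust options, with the replicate block and with the 6 arrays alone. Neither line was called against the control (−0.54 and 1.17, adjusted p = 0.348 and 0.0983).

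AT3G27390 and AT1G67480 shared with EXO an SCR line above the control. AT3G27390 had 1.82, 1.83 and 1.81 on the JKD arrays, against 2.48, 2.52 and 3.06 on the SCR arrays, with a control mean of 1.69. AT1G67480 had 1.60, 1.57 and 1.52 on the JKD arrays, against 2.24, 2.15 and 2.03 on the SCR arrays, with a control mean of 1.62. In each, all SCR arrays were above all control arrays. In AT3G27390, unlike in EXO, the JKD arrays also lay above all control arrays (1.57, 1.77 and 1.74). That difference from the control was 0.07 (adjusted p = 0.658 in limma's test). The direct differences were −0.42 (adjusted p = 0.0403) and −0.33 (adjusted p = 0.0158), and the SCR line differed from the control by 0.50 and 0.29 (adjusted p = 0.0355 and 0.0421). Both direct calls were lost without JKD 1, JKD 2, JKD 3, SCR 1 or SCR 2, after median centring and on the deposited values, and that of AT3G27390 also without SCR 3, control 2 or BLJ 3. The SCR calls against the control were lost without 7 and 9 of the 12 arrays and with 6 arrays alone. That of AT3G27390 was also lost without the trend and robust options, and that of AT1G67480 after median centring and on the deposited values. ALN, the allantoinase gene of purine breakdown, had 1.20, 1.29 and 1.08 on the JKD arrays, 1.71, 1.80 and 1.54 on the SCR arrays and a control mean of 1.30 (−0.34 ± 0.05, adjusted p = 0.014). Its call was lost without JKD 1, JKD 3, SCR 1 or SCR 2 and after median centring.

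In AT2G30930, AT1G74840 and AT1G01730 it was the JKD line that stood away from the control. AT2G30930 had 2.43, 2.46 and 2.28 on the JKD arrays, 4.74, 4.72 and 5.58 on the SCR arrays and 3.87, 3.61 and 5.24 on the control arrays. AT1G74840 had 3.21, 3.26 and 3.19 on the JKD arrays, 4.39, 4.84 and 5.19 on the SCR arrays and 4.14, 4.25 and 4.41 on the control arrays. The JKD arrays were below all control arrays in both, while SCR and control arrays overlapped. Their direct differences were −0.88 ± 0.13 (adjusted p = 0.00824) and −0.49 ± 0.08 (adjusted p = 0.02), and that of AT1G01730 was −0.34 ± 0.06 (adjusted p = 0.0355). Against the control the JKD line differed by −0.66, −0.34 and −0.26 in these 3 genes (adjusted p = 0.0205, 0.0482 and 0.0449), and the SCR line by 0.22, 0.15 and 0.08 (adjusted p = 0.421, 0.404 and 0.588). The direct call of AT2G30930 was lost without JKD 1 or JKD 3, that of AT1G74840 without any JKD array, SCR 2 or SCR 3, and that of AT1G01730 without any JKD array, SCR 2, control 2, BLJ 1 or BLJ 3 or with the 6 arrays alone. All 3 direct calls, and the JKD calls of these genes against the control, were lost after median centring and on the deposited values. The 3 calls against the control were also lost without 3, 11 and 10 of the 12 arrays, with values under 1 set to 1 and with 6 arrays alone. The stricter filter ended those of AT1G74840 and AT1G01730, no filter that of AT1G74840, and leaving out the trend and robust options that of AT1G01730.

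AT4G35750 had 1.21, 1.40 and 1.18 on the JKD arrays, 2.49, 2.10 and 2.09 on the SCR arrays and 1.49, 1.74 and 1.96 on the control arrays, with a difference of −0.58 ± 0.08 (adjusted p = 0.00754) lost without JKD 1 or JKD 3. AT1G19835 (−0.45 ± 0.09, adjusted p = 0.0458) and AT1G22330 (−0.38 ± 0.06, adjusted p = 0.0158) were also lower, and neither line was called against the control in these 3 genes. The call of AT1G19835 was lost without any array other than control 2 and control 3, and that of AT1G22330 without JKD 1, JKD 3 or SCR 2. After median centring and on the deposited values neither was called, and AT1G19835 was also not called without a filter. AT5G47390, which encodes KUODA1, a MYB protein that promotes cell expansion, had 1.40, 1.39 and 1.31 on the JKD arrays, against 1.79, 1.85 and 1.74 on the SCR arrays (−0.27, adjusted p = 0.0355). AT2G47440 (−0.28), AT3G24450 (−0.25), AT3G24715 (−0.18), AT1G28100 (−0.14) and AT2G44380 (−0.11) were the other named genes called lower. AT5G47390 and these 5, like the 7 further genes called higher, lay outside the rule for leading genes and were named after their values were seen.

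**Figure D3:**
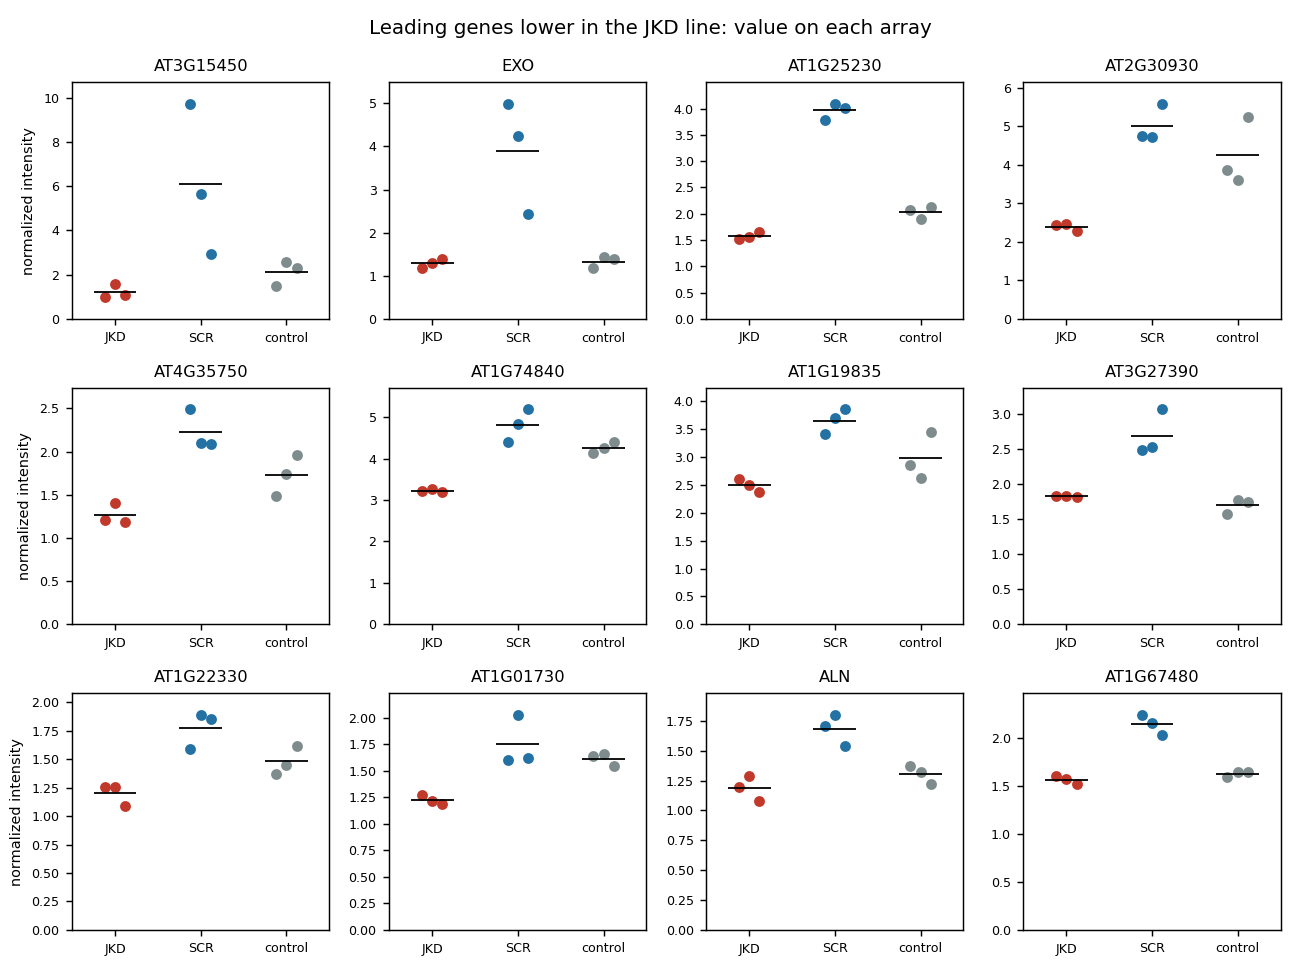
Normalized intensity (y axes from 0) of the 12 leading genes lower in the JKD line on each of the 3 JKD, 3 SCR and 3 control arrays, with points for arrays 1 to 3 from left to right and a bar at the mean. All JKD points lie below all SCR points in each panel; the SCR points of AT3G15450 and EXO are the most widely spread, from 2.94 to 9.73 and from 2.44 to 4.99.

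The control mean lay between the means of the JKD and SCR lines for 46 of the 49 probe sets called higher and for 26 of the 29 called lower. Of the 49, the JKD line was the farther from the control in 33 and the SCR line in 16. Of the 29, the JKD line was the farther in 9 and the SCR line in 20. With no overlap of arrays, the lines lay on opposite sides of the control in 20 probe sets called higher and 6 called lower, while 47 probe sets in all, or 0.295% of those tested, had that order. A call between the lines by itself favours a control that lies between them, so that nothing is read from these counts beyond the order of the groups. Over all probe sets, 2.74% were called in the JKD line against the control and 0.396% in the SCR line, and 23.2% and 19.1% had no overlap with the control arrays.

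**Figure D4:**
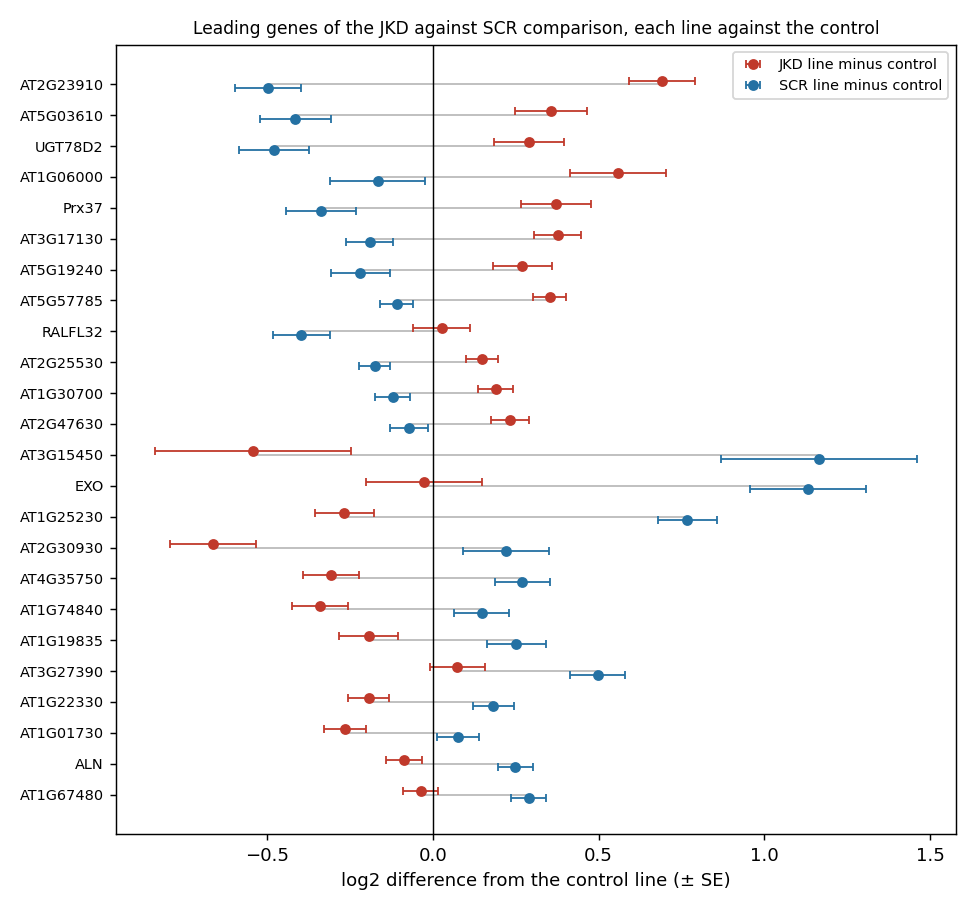
Log2 difference from the control line (x axis, ± SE) of the 24 leading genes, in the JKD line (red) and the SCR line (blue), which share the 3 control arrays. AT2G23910 lies at 0.69 and −0.50, EXO at −0.03 and 1.13, and AT2G30930 at −0.66 and 0.22 in the JKD and SCR lines.

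Genes of the network in which JKD and SCR act did not separate the lines at the threshold. Of 17 listed members 6 were tested and 0 called, 1 with a difference above 0 and 5 below, with a median of −0.04. Without adjustment, 2 of the 6 had a p under 0.05 in limma's test, as had 1666 of the 15922 probe sets tested. With array weights 1 member was called, AT3G45260 (adjusted p = 0.0481 in limma's test). The largest of these differences was that of the JKD gene itself, given above. AT3G45260, the BIRD gene BALDIBIS, had −0.06 ± 0.02 (adjusted p = 0.25), TRI, a tropinone reductase gene and target of the network, −0.07 ± 0.04 (adjusted p = 0.587), and AT1G14580, which encodes BLJ, −0.03 ± 0.03 (adjusted p = 0.732). The GRAS gene AT5G41920 (SCL23) had 0.03 ± 0.02 (adjusted p = 0.617) and SLY2, an F-box gene of gibberellin signalling, −0.03 ± 0.02 (adjusted p = 0.718). All 6 were dim, with means under 1.2 in both lines.

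Markers of the ground tissue layers were not called either. The 4 cortex genes tested of 4 listed had differences of −0.04 to 0.10. AT1G09750 was the brightest of them, at 1.70, 1.81 and 1.75 on the JKD arrays, against 1.49, 1.70 and 1.57 on the SCR arrays (0.10 ± 0.10, adjusted p = 0.775). AT3G21670 (−0.02), AT1G62510 (0.02) and AT1G62500 (−0.04) were all below 1 in both lines, so that these cortex genes gave little signal in cells sorted from a ground tissue trap. Of 16 endodermis genes, 2 were tested. GSO1, a receptor kinase needed for the Casparian strip, had 5.71, 4.69 and 6.59 on the JKD arrays, against 4.66, 3.55 and 4.77 on the SCR arrays (0.34 ± 0.20, adjusted p = 0.593). AT1G61590 (SGN1), a kinase of the same barrier pathway, averaged 5.58 ± 0.426 in the JKD line, against 4.89 ± 0.834 in the SCR line (0.18 ± 0.14, adjusted p = 0.736). The groups overlapped in both genes.

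Lists for other cell types had at most 2 tested members each and 0 calls. The root cap gene AT4G04460 had 1.01, 1.42 and 1.23 on the JKD arrays, against 0.825, 0.921 and 0.934 on the SCR arrays (0.26 ± 0.09, adjusted p = 0.297), without overlap. BBM of the stem cell niche had −0.08 (adjusted p = 0.398), OPS of the phloem −0.06 (adjusted p = 0.539), LHW of the stele −0.13 (adjusted p = 0.49), LBD16 of lateral roots 0.13 (adjusted p = 0.486) and EXPA7 of root hairs 0.05 (adjusted p = 0.763). In such sorted samples fewer cells of a type and less RNA per cell cannot be told apart.

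The remaining lists held few calls or none. Of 69 plastid genome genes tested, 0 were called, 55 were above 0 and 14 below, and the median was 0.06. That median was 0.12 on the deposited values, 0.14 after median centring, 0.03 without JKD 2, 0.04 without SCR 1, 0.03 without SCR 3 and 0.11 without SCR 2. The gene petA, of the cytochrome b6f complex, averaged 2.89 in the JKD line, against 2.17 in the SCR line, the largest difference of the list (0.34 ± 0.17, adjusted p = 0.521), and psbD, of photosystem II, had the smallest p (0.06 ± 0.02, adjusted p = 0.323). Of 24 expansins and xyloglucan-modifying enzymes (XTH), which loosen or rebuild the cell wall, 0 were called, 8 were above 0 and 16 below, with a median of −0.02. EXPA8 came nearest, with 1.07, 1.12 and 1.03 on the JKD arrays, against 1.34, 1.56 and 1.46 on the SCR arrays (−0.28 ± 0.06, adjusted p = 0.0516). The lines did not overlap, and the JKD line was also lower than the control, whose mean was 1.43 (−0.26, adjusted p = 0.0313). This call against the control was lost without control 3 or any JKD array, after median centring, on the deposited values, with values under 1 set to 1, without the trend and robust options and with 6 arrays alone.

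UDP-glycosyltransferases had 1 call among 42 tested (2.38%, against 0.49% of all probe sets), UGT78D2, with 19 above 0, 23 below and a median of −0.01. Glutathione transferases had 0 of 11 (GSTU20 0.08, adjusted p = 0.347), defensin-like genes 0 of 6 (LCR68 0.54, adjusted p = 0.406) and WRKY factors 0 of 6 (ZAP1 0.06, adjusted p = 0.589). Light harvesting and tetrapyrrole genes had 0 of 7 (PORB −0.06, adjusted p = 0.442), histones 0 of 5 (HON4 −0.06, adjusted p = 0.801), and mitosis and gibberellin genes 0 of 3 each (AUR3 −0.03, adjusted p = 0.63, and GID1C −0.05, adjusted p = 0.576). The auxin response list had 0 of 3. Its member GH3.3, an auxin-conjugating enzyme, had 1.39, 1.43 and 1.62 on the JKD arrays, against 4.86, 2.53 and 1.70 on the SCR arrays, a difference of −0.69 ± 0.22 (adjusted p = 0.283) without overlap. Of the wound, heat shock, iron deficiency, DNA replication and ribosomal protein lists, 1 or 2 members were tested, and STZ (−0.29, adjusted p = 0.607), Hsp70-2 (−0.22, adjusted p = 0.301), AT3G13610 (−0.11, adjusted p = 0.89), PRL (−0.03, adjusted p = 0.937) and AT1G77750 (0.19, adjusted p = 0.46) were not called. The ribosomal protein list was meant for cytosolic ribosomes, but AT1G77750 entered it through a name pattern. Whether its protein is cytosolic was not examined, so its value is not read as one for cytosolic ribosomes. In all, 6 of 258 list members tested were called, where 0.49% of all probe sets were. Of these, Prx37, EXO, AT4G17830, UGT78D2 and AT1G06000 belong to lists added or extended after a first look at the results. Nothing is therefore read from the comparison of shares.

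The number of calls rested on single arrays. It was 21 without JKD 1, 20 without JKD 3, 30 without SCR 2, 44 without JKD 2 and 48 without SCR 1. It was 139 without control 3, which enters only through normalization, the offset, the filter and the shared estimate of spread. Without SCR 3 it was 91, with the split turned to 30 higher and 61 lower. The share called higher was 62.8%, and it was 81.5% after median centring, with 88 higher and 20 lower. JKD 2, the JKD array with the narrower deposited spread, was the lowest JKD array in 28 of the 49 probe sets called higher (57.1%), against 34.5% of the tested probe sets with a JKD mean above the SCR mean. Of the 26 calls named by rule, 8 held without each of the 12 arrays, namely AT2G23910, AT1G25230, UGT78D2, AT5G03610, AT5G57785, AT3G17130, AT2G25530 and CYP71B34. For the called genes named outside the rules, whether the calls held in this way is not given here.

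**Figure D5:**
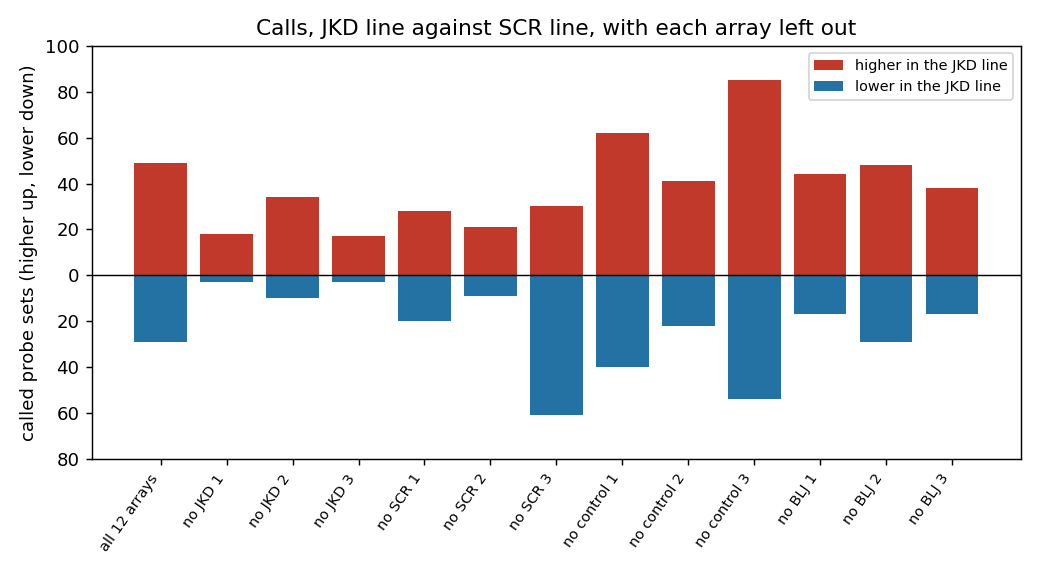
Number of probe sets called between the JKD and SCR lines with all 12 arrays and with each array left out, those higher in the JKD line drawn upward and those lower drawn downward (y axis, counts). The counts run from 20 without JKD 3 to 139 without control 3, against 78 with all arrays.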

How the data were processed

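RNA was hybridised to 12 ATH1 arrays of 1 colour, 3 for each of 4 lines grouped by their titles. Intensities were deposited by the authors on a linear scale, made with MAS5 per the submitters' processing notes; the sources used here do not give its version, background correction or scaling, so scale and centring stay unknown. The labels name 2 labelling protocols without tying them to arrays, so this could not be used as a block. The replicates are labelled biological, and arrays give no read depth, so their number limits the precision.

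The 55 control probe sets were left out. Values were quantile-normalized, raised by 0.7025 (the 20th percentile of the values) and put on the log2 scale, and the dimmest 30% of probe sets by mean were dropped. Differences were tested with limma 3.58.1 (R 4.3.3), fitting 1 mean for each group to the 12 arrays together; eBayes was run with its trend and robust options, and p-values were adjusted by Benjamini-Hochberg over 15922 probe sets. It was checked on simulated data. The alternatives were other scalings, offsets, filters, moderation, array weights, a replicate block, the 6 arrays alone and each array left out.

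Of 22746 probe sets, 13513 have 1 gene in the platform annotation, of which 13436 matched RefSeq (TAIR10.1, names only), 503 have several genes and 8730 are unnamed here; 19 of the 24 leading genes are known here by locus alone. Leading genes are the 12 highest and 12 lowest calls that map to 1 gene, are brighter than the median probe set and do not overlap between the lines; of each list, up to 2 called members per direction or 1 member as a value are named, and all members of the network, cortex and endodermis lists. Other list members given with values were named after these were seen. Of 39 lists, 7 had no member tested. The members and lists were chosen with earlier results of these data known; 4 lists (peroxidases, EXORDIUM family, arginine synthesis, flavonol glycosyltransferases) were added or extended, and the name patterns of others corrected, after a first look at the results. A locus with several probe sets is represented by the brightest.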

Additional observations from a re-analysis of the deposited data

Results flagged for a closer look

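In 9 of the 26 calls named by rule, the lines lay on opposite sides of the control, with no overlap of arrays. Of all probe sets tested, 47 (0.295%) had that order. A call between the lines by itself favours a control that lies between them, so nothing is read from the count. The difference between the 2 effects is the direct comparison itself, and its log2 value (JKD minus SCR) was 1.19 for AT2G23910, 0.71 for Prx37, 0.57 for AT3G17130, 0.46 for AT5G57785, 0.32 for AT2G25530, 0.31 for AT1G30700 and 0.31 for AT2G47630, with the JKD line above and the SCR line below the control. It was −1.03 for AT1G25230 and −0.58 for AT4G35750, with the JKD line below and the SCR line above. In none of the 9 were both lines called against the control. AT5G47390, AT1G74640, AT2G15340 and AT1G14345, named outside the rules, also had the lines on opposite sides of the control without overlap.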

How the results depend on the processing

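For the JKD line against the SCR line, 78 probe sets were called, against 119 on the deposited values (82 higher, 37 lower; 59 shared), 143 with the replicate block, 132 with the 6 arrays alone and 338 with array weights. With 1 array left out the count ran from 20 to 139, and without JKD 2 and SCR 2, a setting chosen after seeing the data, it was 9. Other settings gave 72 to 108. The JKD line against the control had 437 calls, and 4007 on the deposited values, 3837 after median centring, 25 with values under 1 set to 1, 146 with the stricter filter, 150 without the trend and robust options, 13 with 6 arrays, 7 to 678 with 1 array left out and 130 without JKD 2 and SCR 2. The SCR line against the control had 63, and 21 with values under 1 set to 1, 31 with the stricter filter, 5 without the trend and robust options, 205 with the replicate block and 2 to 276 with 1 array left out. By limma, 0 were called with 6 arrays and 0 without JKD 2 and SCR 2, where 1993 and 1909 had an unadjusted p under 0.05. Called list members numbered 6, with 13 under array weights, 2 to 7 with 1 array left out and 0 without JKD 2 and SCR 2, where 27 had an unadjusted p under 0.05. The cause of these shifts was not tested. The numbers of the replicates share no known source. The deviations of same-numbered JKD and SCR arrays correlated at −0.19, 0.252 and 0.0642, against −0.253 to 0.179 for arrays with different numbers. Whether arrays of the same number are paired was not tested. Of the 26 calls named by rule, 0 reversed and 11 held in every setting other than leaving out arrays. There and without each of the 12 arrays, 7 held: AT2G23910, AT1G25230, UGT78D2, AT5G03610, AT5G57785, AT3G17130 and AT2G25530. Without JKD 2 and SCR 2 together, UGT78D2, AT5G03610, AT3G17130 and AT2G25530 lost their calls. Their highest adjusted p in limma's test over all settings was 0.0506, 0.101, 0.0564 and 0.0564. Called differences among probe sets near the offset are small and understated.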

Other observations

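Several genes had large differences between the lines that were not called, with SCR 1 as the highest of the 6 arrays. ASPGB1, an asparaginase gene, had 1.37, 1.49 and 1.48 on the JKD arrays, against 7.92, 2.47 and 1.45 on the SCR arrays, a log2 difference of −0.86 (adjusted p = 0.471). ICL, the isocitrate lyase gene of the glyoxylate cycle, had 0.866, 0.91 and 0.936 on the JKD arrays, against 2.75, 2.24 and 0.982 on the SCR arrays (−0.68, adjusted p = 0.335). AT2G41730 had 0.915, 1.42 and 0.911 on the JKD arrays, against 7.26, 1.79 and 0.91 on the SCR arrays (−0.84, adjusted p = 0.56). SCR 3 was near the JKD arrays in all 3 genes, and SCR 1 was also the highest and SCR 3 the lowest SCR array in AT3G15450, EXO and GH3.3.

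The SKU5-similar genes sks15 and sks16, which belong to a family of cell wall and membrane proteins related to multicopper oxidases, ran in the same direction with another array at the top. The gene sks15 had 3.29, 3.44 and 2.05 on the JKD arrays, against 4.49, 4.64 and 7.09 on the SCR arrays (−0.75, adjusted p = 0.271), and sks16 had 2.22, 2.33 and 1.48 on the JKD arrays, against 2.87, 3.20 and 4.48 on the SCR arrays (−0.63, adjusted p = 0.306). The lines did not overlap in either gene, JKD 3 was the lowest and SCR 3 the highest array, and neither gene was called. These genes were chosen after their values were seen.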
